A study of Mus musculus with 2 samples.

Results

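The subject is a set of 10 genes: Tnf, which encodes the cytokine tumour necrosis factor, the NF-kappaB subunit genes Nfkb1, Nfkb2, Rel, Rela and Relb, and the inhibitor genes Nfkbia, Nfkbie, Nfkbiz and Tnfaip3. They were found by exact match of the gene name on the array, among 31829 gene names in all, and each of the 10 had at least 1 probe. The cells were RAW264.7, a transformed mouse line that resembles macrophages. Their RNA was read on 1 Agilent array for the Lamtor1 knockdown and 1 for the control. Lamtor1 anchors Ragulator, the lysosomal scaffold on which the kinase complex mTORC1 is activated, and the series asks what the transcription factor TFEB does in cells without it. The knockdown came from a commercial lentiviral mixture of 2 short hairpin vectors against Lamtor1, followed by limiting dilution. The labels print the same treatment text for the control, so it is not known here what the control cells received, nor whether either population is 1 clone. The labels name no inflammatory stimulus for either sample.

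NF-kappaB factors are dimers of Rel family proteins that inhibitor proteins hold in the cytoplasm of resting cells. Receptors for tumour necrosis factor, interleukin 1 and microbial products activate the IKK kinases, which mark these inhibitors for destruction and so free the dimers to enter the nucleus. In macrophages the freed dimers drive cytokine genes such as Tnf, and also the genes of their own inhibitors, which close the loop. The activity of the factors is set largely on proteins, which the arrays do not measure.

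The 10 genes had 12 probes in 21 spots. Of these, 11 probes for 9 genes were well above background on both arrays, and the probe of Rel was not on either. A level is the log2 of the processed signal divided by that array's 75th percentile, and each difference is the knockdown level minus the control level. A level depends on its probe, so levels were compared between arrays and not between genes. With 1 array per group there is no replicate check and no test was possible: every difference describes these 2 arrays, and their number limits the precision. A lower bulk signal cannot tell fewer expressing cells from less RNA per cell. Besides the difference, the scanner's own error model gave an error for each probe, between 0.20 and 0.27 in log2 for the 11 measured probes. This error covers the spot and not the culture. Only Nfkbiz had an error above 0.21, so for the other measured probes multiples of the error mostly restate the size of the difference.

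The targeted gene fitted the labels: Lamtor1 had a level of -0.43 on the knockdown array, against 4.10 on the control array, a log2 difference of -4.53. Of 43020 spots that were not controls, 22745 (52.9%) were well above background on the knockdown array and 22929 (53.3%) on the control array. Both arrays lay on 1 slide and were read in 1 scan. All 11 macrophage marker genes with a probe were well above background on both arrays, with a summed level of 9.03 in the knockdown and 9.24 in the control. Of the 11, 2 were at least 2-fold higher, Cd68 (2.33-fold) and Fcgr3 (2.86-fold), and 2 were lower, Emr1 (2.95-fold) and Lyz1 (2.61-fold). Such differences were found for 8.7% (higher) and 8.64% (lower) of all measured genes. Of markers of other cells, 3 of 6 for T cells, 1 of 5 for B cells, 1 of 5 for fibroblasts and 0 of 5 for epithelium were measured, the B cell gene on the control array alone. The part of these markers in the results below was not tested.

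The 9 measured genes lay on both sides of 0. The 3 genes of I-kappaB type inhibitors, Nfkbia, Nfkbie and Nfkbiz, and Tnf itself all had lower signals in the knockdown. Of the 4 measured subunit genes, 3 had higher signals, by 1.06-fold to 1.48-fold, and Nfkb1 a lower one. Tnfaip3, the remaining inhibitor gene, was slightly higher. None of the 9 genes was at least 2-fold higher, where 8.7% of the 17514 measured genes were, and 1 of the 9 was at least 2-fold lower, where 8.64% of all were. At 1.5-fold, a threshold chosen after the values were seen, 0 were higher and 3 lower, against 14.7% and 16.8% of all measured genes. The median of the 9 genes was -0.31, and that of all measured genes -0.07.

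**Figure D1:**
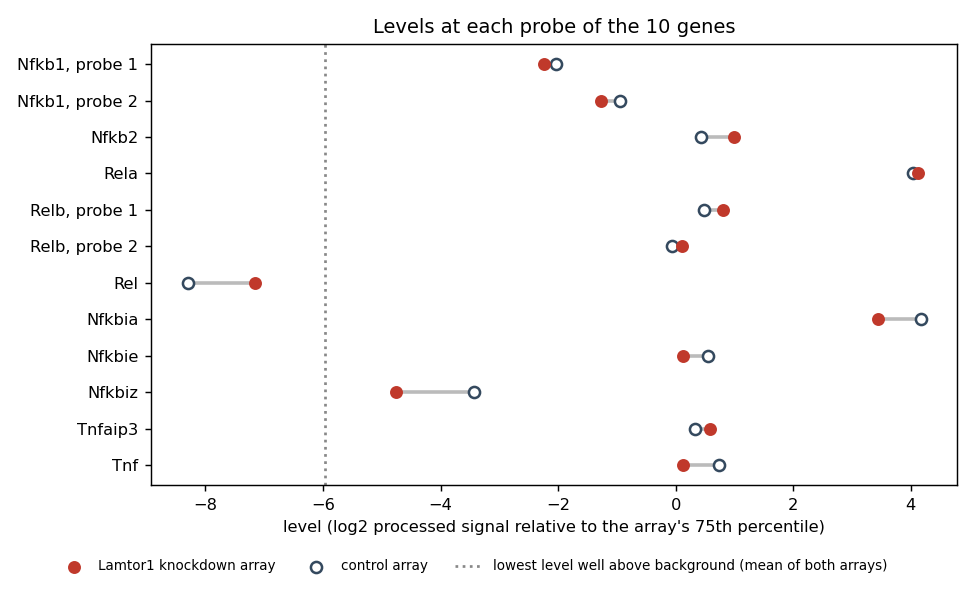
Level at each of the 12 probes on the Lamtor1 knockdown array (filled) and on the control array (open), as log2 processed signal relative to the 75th percentile of the array; the dotted line marks the lowest level well above background. Every probe but that of Rel lies right of the line, and the inhibitor probes of Nfkbia, Nfkbie and Nfkbiz and the Tnf probe have the knockdown point on the left.

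Probes are printed for 4 genes: Nfkbiz and Nfkb2, at the lower and upper end of the differences, Nfkbia, the main feedback inhibitor, and Nfkb1, the other precursor subunit. Each is 60 bases, the array oligo in the sense of the messenger RNA, 5′ to 3′, as the scanner files give it. The positions are in mm9. That of Nfkbia runs over chr12:56590945-56591440 on the minus strand, 496 bases for an oligo of 60, and that of Nfkb2 over 140 bases, chr19:46386146-46386285 on the plus strand. Those of Nfkb1 (chr3:135254550-135254609) and Nfkbiz (chr16:55817859-55817918) lie on the minus strand in 60 unbroken bases. No genome of that build was used here, so exon and untranslated region were not looked up.
Nfkbia: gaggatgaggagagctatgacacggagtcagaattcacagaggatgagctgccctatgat
Nfkbiz: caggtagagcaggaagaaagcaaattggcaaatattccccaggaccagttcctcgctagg
Nfkb2: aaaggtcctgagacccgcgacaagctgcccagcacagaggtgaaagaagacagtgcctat
Nfkb1: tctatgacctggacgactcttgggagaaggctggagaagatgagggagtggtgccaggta

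Among the subunits, Rela encodes the partner that carries the main activation domain of the classical dimer. Its level was 4.12 in the knockdown, against 4.03 in the control, at chr19:5648070-5648129 (mm9). The difference of 0.09 was 0.44 times the scanner error, so it lay within that error. For probes with repeated spots, a difference taken from single spots had a median SD of 0.079. Nfkb1 encodes the precursor of the DNA-binding partner of Rela. At the probe printed above its level was -1.27 in the knockdown, against -0.95 in the control, a difference of -0.31 that was 1.53 times the scanner error. The other Nfkb1 probe, at chr3:135247621-135247680, read -2.24 in the knockdown, against -2.04 in the control, a difference of -0.20. Both Nfkb1 probes thus had the lower reading on the knockdown array, by 1.15-fold and 1.24-fold.

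The alternative NF-kappaB pathway runs through the precursor encoded by Nfkb2 and its partner encoded by Relb. Nfkb2 had the largest difference above 0 of the 9 measured genes: its signal was 2497 units in the knockdown, against 1571 units in the control. The levels were 0.99 and 0.42, the difference 0.57, or 1.48-fold, and 85.0% of all measured genes had a lower difference. Relb was read by a pair of probes that overlap on chromosome 7 and so are not independent. The probe at chr7:20191722-20191781 had a level of 0.81 in the knockdown, against 0.48 in the control, and that at chr7:20191773-20191832 had 0.11, against -0.06. Both readings were higher in the knockdown, with differences of 0.33 and 0.17, the first 1.62 times and the second 0.84 times the scanner error. The Nfkb2 difference was 2.79 times that error.

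Rel encodes c-Rel, a subunit abundant in lymphocytes and induced in activated myeloid cells. Its single probe was not well above background on either array, with signals of 8.74 units in the knockdown and 3.71 units in the control, where the scanner had put in a surrogate value. No fold is given for Rel. The files place this oligo at chr11:23641729-23641743 (mm9), which accounts for 15 of its 60 bases. How far this probe can read c-Rel messenger RNA was not tested.

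Nfkbia encodes I-kappaB alpha, the inhibitor that NF-kappaB itself restores after activation. Its signal was 13602 units in the knockdown, against 21072 units in the control, and the levels were 3.44 and 4.17. The difference of -0.73 left the knockdown at 60.3% of the control signal, 3.58 times the scanner error away from equality. Of all measured genes, 12.9% had a still lower difference. Nfkbie encodes I-kappaB epsilon, a slower feedback inhibitor, and was read at chr17:45700000-45700059. Its level was 0.12 in the knockdown, against 0.55 in the control, a difference of -0.44 that was 2.14 times the scanner error.

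Nfkbiz encodes I-kappaB zeta, an inducible nuclear protein that acts as a cofactor at part of the NF-kappaB target genes. It was the 1 gene of the set past 2-fold, with a level of -4.76 in the knockdown, against -3.43 in the control. The difference was -1.34, or 2.53-fold lower, and 5.94% of measured genes lay lower. The signals behind it were dim, 46.2 units in the knockdown and 109 units in the control, on arrays whose median local background was 30 and 28.5 units. With normexp background correction, which here also added an offset of 50 units to both signals, the difference was -0.70, short of 2-fold. An added constant by itself draws dim signals together. The direction was the same with and without normexp. How much of the smaller size came from the background correction and how much from the offset was not tested.

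Tnfaip3 encodes A20, a ubiquitin-editing enzyme that dampens signalling from the tumour necrosis factor and Toll-like receptors. It was read at chr10:18720776-18720835 with a level of 0.59 in the knockdown, against 0.32 in the control. The difference of 0.27 was above 0, where those of the 3 I-kappaB genes were below it. It exceeded the scanner error of 0.20, which does not cover the spread between cultures, so its direction was not tested.

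Tnf was the best measured gene of the set, since its probe, at chr17:35336795-35336854 on the minus strand, was spotted 10 times on each array. The levels ran over 0.07, 0.14 and 0.19 (lowest, median and highest spot) in the knockdown, against 0.68, 0.72 and 0.78 in the control. All 10 knockdown spots lay below all 10 control spots. The mean level was 0.13 ± 0.04 in the knockdown and 0.73 ± 0.03 in the control (SD over 10 spots of 1 hybridised sample each). The difference was -0.60, or 1.52-fold lower, and 16.3% of measured genes had a lower one. The spots repeat the reading of 1 RNA sample per group and do not stand for cultures. For comparison, 216 probes had repeated spots, and a difference taken from single spots had a median SD of 0.079.

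**Figure D2:**
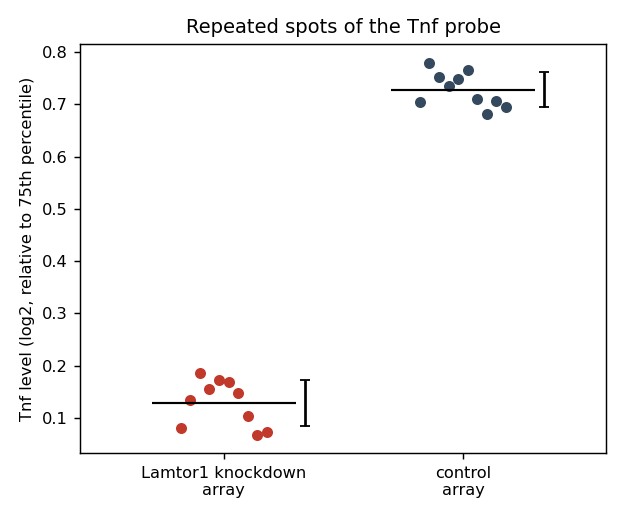
Tnf level (log2 relative to the array's 75th percentile) at each of the 10 spots of its probe on the Lamtor1 knockdown array and on the control array, with the mean (line) and SD over spots (bar). The knockdown spots end at 0.19 and the control spots begin at 0.68, so the spots do not overlap; they are repeats on 1 array per group.

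The middle 50% of measured genes lay between -0.40 and 0.28, and 6 of the 9 lay outside it: Nfkbiz, Nfkbia, Tnf and Nfkbie below, and Relb and Nfkb2 above. Relb counts here by its brighter probe (0.33), and its other probe, at 0.17, lay inside that range. Over all measured genes 56.5% had a difference below 0, and of the 9 genes 5 did.

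**Figure D3:**
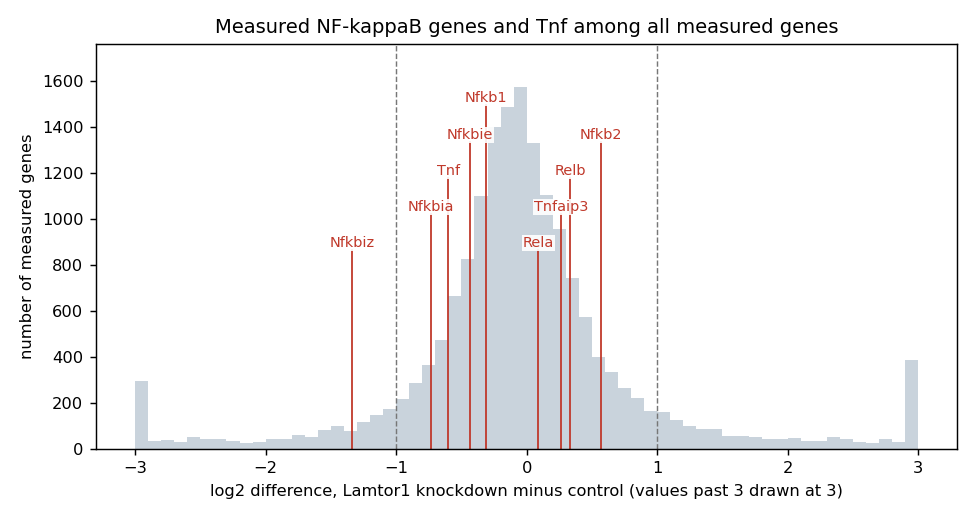
Histogram of the log2 difference (knockdown minus control) of the 17514 measured genes, with the 9 measured genes of the set as red lines; dashed lines mark 2-fold, and values past 3 are drawn at 3. Of the 9, Nfkbiz lies beyond the dashed lines, and the other 8 lie between -0.73 and 0.57.

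Upstream sequences are printed for 4 genes of the set that NF-kappaB is known to regulate and that had unequal readings here, Nfkbia and Nfkbie lower in the knockdown and Nfkb2 and Tnfaip3 higher. Each is the 250 bases before a RefSeq start in GRCm38.p6, with matches to the kappaB consensus, a motif of 10 letters searched on both strands, in capitals. Overlapping matches run together in 1 stretch. Of 3 starts in the table for Nfkb2 and 2 for Tnfaip3, 1 is shown for each because it holds the most matches. The other Nfkb2 starts held 1 match each, and the other Tnfaip3 start held 0. They lie at chr12:55492648-55492897 (minus strand, Nfkbia), chr17:45555450-45555699 (plus, Nfkbie), chr19:46304487-46304736 (plus, Nfkb2) and chr10:19015411-19015660 (minus, Tnfaip3).
Nfkbia: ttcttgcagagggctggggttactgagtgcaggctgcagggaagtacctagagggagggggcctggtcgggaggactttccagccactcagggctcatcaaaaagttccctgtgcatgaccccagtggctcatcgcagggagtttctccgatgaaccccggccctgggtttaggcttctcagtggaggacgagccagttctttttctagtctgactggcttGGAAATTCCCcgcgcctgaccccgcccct
Nfkbie: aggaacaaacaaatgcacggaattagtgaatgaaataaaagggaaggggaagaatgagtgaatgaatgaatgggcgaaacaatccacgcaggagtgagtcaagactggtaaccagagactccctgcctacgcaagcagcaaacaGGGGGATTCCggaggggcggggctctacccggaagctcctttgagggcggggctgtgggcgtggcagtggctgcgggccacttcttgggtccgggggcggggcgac
Nfkb2: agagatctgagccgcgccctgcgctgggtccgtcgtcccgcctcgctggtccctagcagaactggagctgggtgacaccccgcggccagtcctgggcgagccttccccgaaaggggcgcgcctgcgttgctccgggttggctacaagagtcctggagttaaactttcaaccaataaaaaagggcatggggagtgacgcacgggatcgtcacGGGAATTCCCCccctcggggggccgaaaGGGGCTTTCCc
Tnfaip3: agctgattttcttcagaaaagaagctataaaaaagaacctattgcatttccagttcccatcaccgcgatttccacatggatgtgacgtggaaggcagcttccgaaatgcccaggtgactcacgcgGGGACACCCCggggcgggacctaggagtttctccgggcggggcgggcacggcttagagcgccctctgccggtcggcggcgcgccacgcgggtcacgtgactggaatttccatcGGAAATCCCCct

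The capitals begin 29 bases before the start in Nfkbia and 106 bases before it in Nfkbie. In Nfkb2 they begin 39 and 11 bases before it, and in Tnfaip3 125 and 12 bases before it. The printed genes were chosen to have readings on both sides of 0, so a relation between motif and reading was not tested. Of 7 genes of the set with a sequence in the table, 5 held a match, as did 1204 of 27025 genes overall (4.46%). Rela and Tnf held none in this window. A match is a stretch of letters and does not show that a factor binds there.

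Upstream of NF-kappaB stand the ligands and receptors of the tumour necrosis factor superfamily, of which 7 of 17 ligand genes and 21 of 28 receptor genes were measured. Past 2-fold, 3 of the 7 ligand genes were higher and 3 were lower, where 8.7% and 8.64% of all measured genes were. Their median difference was 0.16, and it was 0.96 over the 6 above background on both arrays, since Tnfsf14 was measured through the control array alone. Tnfsf12, which encodes the cytokine TWEAK, was 4.43-fold higher, Tnfsf18, the ligand of GITR, 3.60-fold (1.86-fold with normexp) and Tnfsf13b, the B cell factor BAFF, 3.42-fold. The Tnfsf12 probes gave log2 differences of 2.15 and 3.70. Ltb, which encodes lymphotoxin beta, was 3.15-fold lower, and Tnfsf9, the ligand of the costimulatory receptor encoded by Tnfrsf9, 2.41-fold. Tnfsf14 was above background in the control only, and its fold is a lower bound of 4.79 (at least 4.79-fold lower, against 1.97-fold with normexp). Such bounds replace the dim reading by that array's detection floor, or by the probe's own reading where this is higher.

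Among the 21 receptor genes, 3 lay past 2-fold on the higher side and 6 on the lower side (5 when counted by such bounds). The shares over all measured genes were 8.7% and 8.64%. The median was -0.02 over the 21 genes and 0.47 over the 16 above background on both arrays, the other 5 being measured through the control array alone. Tnfrsf1a, the main receptor for tumour necrosis factor, had a level of 2.64 in the knockdown, against 2.71 in the control, and its difference was -0.08. Tnfrsf1b, the second receptor of the same ligand, was 2.87-fold higher, with levels of 0.26 in the knockdown and -1.26 in the control. Tnfrsf9 was 2.24-fold higher, and its probes gave log2 differences of 1.16 and 2.19. The remaining higher gene, Tnfrsf26, named after its value was seen, was 3.35-fold higher and above background on both arrays. Of the 6 lower genes 5 were above background in the control only. By their bounds, Cd40 was at least 6.70-fold lower, Tnfrsf18 at least 4.48-fold, Tnfrsf19 at least 3.65-fold, Tnfrsf25 at least 3.13-fold and Tnfrsf8 at least 1.91-fold. Another Tnfrsf19 probe gave a log2 difference of -0.55. With normexp the folds were smaller, 2.52 for Cd40, 2.14 for Tnfrsf18, 1.93 for Tnfrsf25, 1.83 for Tnfrsf8 and 1.73 for Tnfrsf19, all lower in the knockdown, and 3 receptor genes were at least 2-fold lower. The offset of 50 units in normexp by itself draws dim signals together, so these folds do not test the bounds. The bounds are stated for the processed signal alone.

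Between the receptors and the IKK kinases, 38 of 40 receptor and adaptor genes were measured. Of these 34 stayed within 2-fold, 1 was higher, 3 were lower, and the median was 0.10. The shares over all measured genes were 8.7% higher and 8.64% lower. The higher gene of the list was Tnfrsf1b. The lower ones were Cd40, Traf1, an adaptor that NF-kappaB induces (3.31-fold lower), and Tnfrsf11a, the receptor RANK of osteoclast precursors (2.26-fold lower). Tnfrsf1b, Cd40 and Tnfrsf11a are also counted in the receptor superfamily above. Cd14, a coreceptor for lipopolysaccharide, had a difference of -0.22, and Ube2v1, a partner of ubiquitin chain synthesis, one of 0.05.

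Genes of the IKK complex differed little. The kinase genes Chuk and Ikbkb had differences of 0.11 and 0.13, and Ikbkg, which encodes the regulatory subunit, one of 0.20. Of 30 genes in the list of IKK genes, activating kinases and cofactors, 27 had a usable probe under the listed name. All 27 were measured, of which 0 were at least 2-fold higher and 1 was lower, with a median of 0.08. That 1 was Pdlim2, whose product promotes the breakdown of nuclear Rela protein, at 2.10-fold lower. Array-wide, 8.7% passed 2-fold upward and 8.64% downward. Skp1a and Rbx1, parts of the ubiquitin ligase that acts on the I-kappaB proteins, had differences of 0.04 and 0.10.

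Of 19 inhibitors outside the set of 10 and partners of A20, 18 had a usable probe under the listed name. All 18 were measured, with a median of 0.12. Of these, 2 were at least 2-fold higher and 0 lower, beside array-wide shares of 8.7% and 8.64%. Tnip1, which encodes the A20-binding protein ABIN1, was 2.01-fold higher, with levels of 4.99 in the knockdown and 3.98 in the control, and its probes gave differences of 1.01 and 1.10. Tax1bp1, an adaptor that brings A20 to its substrates and also an autophagy receptor, was 2.21-fold higher. Bcl3, an atypical nuclear member of the I-kappaB family, had a difference of -0.41. Of its relatives, named after their values were seen, Nfkbib, which encodes I-kappaB beta, had a difference of 0.38, with its 3 probes between 0.19 and 0.49, and Nfkbid one of -0.65. Of these I-kappaB family genes outside the set, Nfkbib thus lay above 0, and Bcl3 and Nfkbid below it. With scaling over spots above background on both arrays, 1 gene of this list was at least 2-fold higher.

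Target genes of NF-kappaB in activated macrophages had differences on both sides of 0. Of 34 measured genes of 48, 9 were at least 2-fold higher, 7 were lower and 18 lay between, with a median of 0.36, against shares of 8.7% (higher) and 8.64% (lower) over all measured genes. By bounds 8 were higher. Of the 34, 30 were above background on both arrays, and among those 7 were at least 2-fold higher and 5 lower. Normexp also gave 7 and 5. Csf1 and Csf3 were above background in the knockdown only, and Il1b and Ptgs2 in the control only. Ltb and Tnfsf9, both lower, are also counted among the ligand genes above. Il1rn, which encodes the antagonist of the interleukin 1 receptor, was 19.8-fold higher, with levels of 1.68 in the knockdown and -2.63 in the control. Csf1, a growth factor of macrophages, was above background in the knockdown only, by a bound of at least 2.40-fold, and normexp gave 1.58-fold higher. Ccl2, a monocyte chemokine named after its value was seen, was 5.36-fold higher and above background on both arrays. Bcl2a1d, a survival gene, was 2.39-fold higher, and Sod2, the mitochondrial superoxide dismutase, had a difference of -0.06.

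In the other direction, Cxcl10, a chemokine that interferons also induce, had a level of -4.95 in the knockdown, against -0.90 in the control, and was 16.6-fold lower (7.10-fold with normexp). Ptgs2, the inducible cyclooxygenase, was above background in the control only, by a bound of at least 15.5-fold, and normexp gave 4.56-fold lower. Marcksl1, a membrane and actin protein gene, was 9.07-fold lower. Of 35 genes of this list with an upstream sequence, 11 held the kappaB consensus (31.4%), among them 2 of 6 genes at least 2-fold higher and 3 of 6 at least 2-fold lower. The targets thus had no common direction.

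Genes listed for shedding of the Tnf protein or control of its messenger RNA were mostly within 2-fold. The list also holds Tnfaip1, Tnfaip8 and Tnfaip8l2, to which neither role is assigned here. Of 27 listed names, which count Hnrnpd also under its alias Auf1, 24 had a usable probe. Measured were 23 genes, with 1 at least 2-fold higher, 1 lower and a median of -0.07. Array-wide, 8.7% passed 2-fold upward and 8.64% downward, and the median was likewise -0.07. The list was thus not set apart from the array by its median. Adam17, the protease that releases Tnf from the membrane, had a level of -1.07 in the knockdown, against -0.51 in the control, and its probes gave differences of -0.56 and -0.54. Zfp36, which encodes tristetraprolin, a protein that destabilises Tnf messenger RNA, had a difference of -0.31, its relative Zfp36l2 one of 0.18, and Zfp36l1 was 2.60-fold lower. Litaf, whose product resides on late endosomes and lysosomes and was named after a proposed role at the Tnf promoter, was 2.88-fold higher, with levels of 6.21 in the knockdown and 4.68 in the control.

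**Figure D4:**
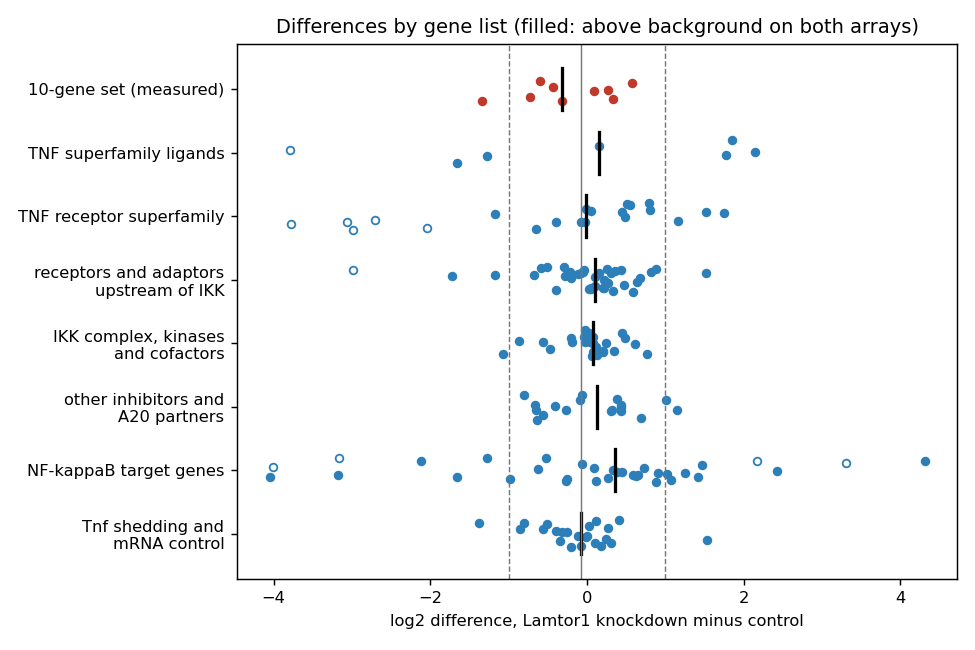
Log2 difference (knockdown minus control) of each measured gene in the 10-gene set and in 7 lists of the pathway; black bars are medians, dashed lines mark 2-fold, the grey line is the median of all measured genes, and open points are genes above background on 1 array. The target list spans -4.05 to 4.31, and the 9 measured genes of the set span -1.34 to 0.57.

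Each of the 11 measured probes kept the sign of its difference under the 6 alternatives of background correction, scaling and value source that altered probe values. The sign of the Rel readings, both below background, carries no information, and their difference was 0.02 with normexp. Across these settings the Tnf difference ran from -0.64 to -0.51, that of Nfkbia from -0.77 to -0.64 and that of Nfkb2 from 0.53 to 0.66. The Nfkbiz difference ran from -1.38 to -0.70.

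**Figure D5:**
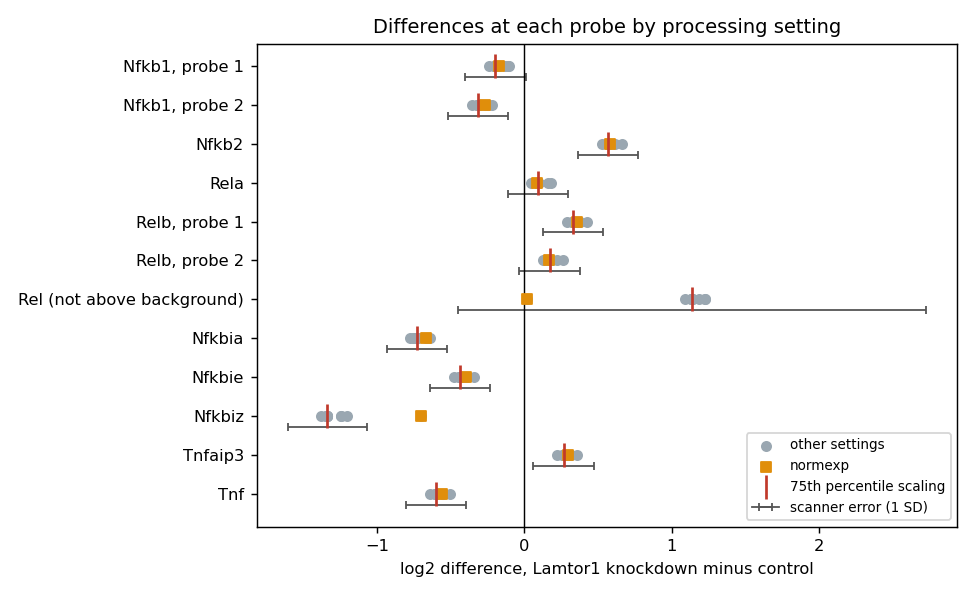
Log2 difference (knockdown minus control) at each of the 12 probes by processing setting: red bars are the 75th percentile scaling, orange squares normexp, grey points the other settings, and the lower bars the scanner's own error (1 SD). Apart from Rel, which is not above background, the probe of Nfkbiz moves most, to -0.70 with normexp.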

How the data were processed

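RNA of 1 Lamtor1 knockdown and 1 control sample was labelled with Cy3 and hybridised to 1 array each. The authors deposited scanner files whose spot values are an intensity on a linear scale. The submitters' processing notes name Agilent Feature Extraction, version 10.7.3.1, run with spatial and multiplicative detrending and surrogates for signals below background, per the file headers, which also name mm9 as the build of the probe positions. The deposited value table gives that intensity in rounded form (ratios of 0.995 to 1.00 to the scanner files), linear and not centred, with column medians of 27.8 in the knockdown and 28 in the control.

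Here processed intensities of non-control spots were divided by their 75th percentile on each array (1255 in the knockdown, 1172 in the control) and converted to log2. Spots flagged as outliers (177 and 162) were left out, no spot was saturated, and spots of a probe were averaged. A gene took its highest-signal probe and counted as measured if the scanner flagged it well above background on either array, which left 17514 gene names. With 1 array per group no test was run, and 2-fold (log2 difference of 1) was the threshold. Python 3.11.15, numpy 2.4.6, pandas 2.3.3 and, for normexp (offset 50), quantile and cyclic loess, limma 3.58.1 in R 4.3.3 were used. The code was checked on simulated data, which does not test the calls on these arrays. The members and lists were chosen with earlier results of these data known. Some genes are in more than 1 list, so the list counts are not separate observations. Named genes are every member, Lamtor1, 9 fixed genes, and per list up to 5 with the largest differences past 2-fold and the 2 with the highest signals. These differences include readings below background, whose order is not measured, so Csf1 and Tnfrsf8 were named ahead of genes above background on both arrays. Genes of alike pattern were not named, since with 2 arrays a pattern is 1 difference. Upstream sequences are RefSeq's, GRCm38.p6, matched by symbol.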

Additional observations from a re-analysis of the deposited data

How the results depend on the processing

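No paired analysis was possible because each group holds 1 array, and slide and scan could not be used as a block because both arrays share them. Of 12 alternatives, 6 altered probe values and the others only filters, gene names or counting; none of the 11 measured probes of the set changed sign. Over all probes and alternatives, 18 values moved by more than the spot spread of 0.079, most of them with median scaling, and 126 did not. The 126 include every value under the alternatives that altered no probe value, so they overstate the stability. The count of genes of the set at least 2-fold lower was 1 and became 0 with normexp, which brought Nfkbiz to -0.70, and 3 at a 1.5-fold threshold chosen after seeing the data. The count at least 2-fold higher was 0 and became 1 without a filter on dim probes, when Rel, below background on both arrays, was let in. The median of the set was -0.31, and it was -0.22 with median scaling and -0.11 without the filter. Lamtor1 had a difference of -4.38 with normexp and -4.43 with median scaling, against -4.53. Of the pathway lists, the inhibitors outside the set had 1 gene at least 2-fold higher, in place of 2, with scaling over spots above background on both arrays. The IKK list had 0 genes at least 2-fold lower, in place of 1, with median scaling. The receptor superfamily had 3 lower, in place of 6, with normexp and 1 when genes had to be above background on both arrays. The other counts of the lists stayed within 1.5 times. Of the 10 genes, Rel could not be measured, and the fold of Nfkbiz was smaller with normexp and its offset. With 1 array per group, no value has a replicate check. The median of all genes ran from -0.12 to 0.02 over the settings.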
